A study of Mus musculus with 8 samples.

Results

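The small leucine-rich proteoglycans were followed in mouse heart ventricle through 9 of their genes, Dcn, Bgn, Aspn, Lum, Fmod, Prelp, Kera, Omd and Ogn. They are a chosen list of members and not the whole family on the array. Other leucine-rich genes of the family are given further below. Each of the 9 was found by the RefSeq accession of its probe, and all 9 were among the 22909 genes with a named probe. Prelp had 2 probes and every other member had 1. The study set knock-in mice (KI), homozygous for the ΔK210 deletion of Tnnt2, against wild-type mice (WT). Tnnt2 encodes cardiac troponin T, and the mutation models an inherited dilated cardiomyopathy. RNA was measured on 8 single-colour arrays in 4 groups of 2, KI and WT at 1 week after birth and KI and WT at birth (0 day), with the ventricles of 3 animals combined for a sample. The labels name no other allele and no treatment, and leave unsaid whether arrays of 1 group were hybridised with different pools. All p-values therefore describe array-to-array spread, which may be technical.

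These proteins are secreted into the extracellular matrix, where a curved domain of leucine-rich repeats binds collagen and controls how fibrils assemble and space themselves. Many carry chains of chondroitin, dermatan or keratan sulfate, and several also bind growth factors, above all transforming growth factor beta. In the heart they are made mainly by fibroblasts and valve cells, and the collagen network they help to organize is laid down rapidly after birth. By sequence the genes followed here fall into class I (Dcn, Bgn and Aspn), class II (Lum, Fmod, Prelp, Kera and Omd) and class III (Ogn).

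At 1 week the deposited value table and the deposited scanner files disagree on which sample 3 of the arrays are, which leaves the genotype of 2 (B and D) uncertain. The 4 arrays at 1 week are called A to D. By the value table, the KI arrays were B and C and the WT arrays were A and D; by the scanner files, the KI arrays were C and D and the WT arrays were A and B. Values follow the value table unless the scanner-file labels are named, and calls that differ by the scanner-file labels are given beside them. The birth arrays had the same labels in both records. Slide row 2 held the 1-week arrays and row 1 the birth arrays, so age cannot be told apart from row. In row 1, KI took columns 3 and 4 and WT columns 1 and 2, so genotype at birth cannot be told apart from column. In row 2, arrays A to D took columns 1 to 4 in that order. By the scanner-file labels, genotype at 1 week therefore cannot be told apart from column either.

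On each array 58.9% to 63.1% of probes were well above background, and precision is limited by how few arrays there are. The 75th percentile of probe signal, to which all levels below refer, was lowest on array D (342) and lay between 440 and 523 on the others. Tnnt2 itself stood at 8.21, 8.20, 8.33 and 7.77 on arrays B, C, A and D, and at 8.19 and 8.11 in KI and 8.16 and 8.30 in WT at birth, in log2 units relative to that percentile; its probe reads transcript amount, not the deleted codon. Array A stood apart in atrial marker genes. The summed level of 7 atrial markers was 69.5 on array A, against 410 to 485 on the other 1-week arrays and 439 to 587 at birth, in multiples of the array's 75th percentile. On A, Myl7 stood at 2.08, Myl4 at 3.11, Sln at -1.06 and Nppa at 5.60 (log2), each below every other array. Nr2f2 (0.69) and Stard10 (-0.66) were also lowest on A, by less. Dkk3, at 2.41, lay within its range at birth. Of 8 fat markers, Adipoq and Ucp1 were not well above background on array A or on any birth array. Ucp1 stood at 0.52 (B), 1.23 (C) and 2.40 (D), in log2 units. Cidec, Plin1 and Cfd were likewise well above background on only 3 arrays, but Fabp4, Lep and Cidea were on all 8. The summed level of the 8 fat markers did not set array A (183) apart from B (178), but that sum was mostly Fabp4. Fabp4 stood at 7.29 on A and 7.21 on B, in log2 units. The sum of the 8 was 249 for C, 254 for D and 173 to 199 at birth, in multiples of the array's 75th percentile. The summed level of 7 cardiomyocyte markers lay between 2250 and 2523 on all 8 arrays, in the same multiples.

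Most of the members lie in 3 short runs of neighbouring genes. Dcn, Lum and Kera follow each other on chromosome 10, Aspn, Omd and Ogn on chromosome 13 beside Ecm2, and Prelp and Fmod on chromosome 1, where Tnnt2 also lies, at a distance of 25 and 24 tested genes. Bgn is on the X chromosome. RefSeq held a promoter (250 bases before to 50 after the gene's start, GRCm38.p6) for 7 of the 9 members. The promoters of the 3 chromosome 13 neighbours and of the chromosome 1 pair are shown because the first-week changes of these neighbours are set side by side below. Capitals mark the TATA box letters TATAAA. They also mark the CCAAT box and the letters CATTCC, the core bound by TEAD factors, on either strand. A GC box (GGGCGG) was searched as well. So were the AP-1 motif TGANTCA and the SMAD box GTCTAGAC. All but Prelp are on the forward strand of the chromosome, and each is written 5′ to 3′ in the direction of its gene. They lie at chr13:49544193-49544492 (Aspn), chr13:49582212-49582511 (Omd), chr13:49607765-49608064 (Ogn), chr1:133921352-133921651 (Prelp, minus strand) and chr1:134037004-134037303 (Fmod).
Aspn: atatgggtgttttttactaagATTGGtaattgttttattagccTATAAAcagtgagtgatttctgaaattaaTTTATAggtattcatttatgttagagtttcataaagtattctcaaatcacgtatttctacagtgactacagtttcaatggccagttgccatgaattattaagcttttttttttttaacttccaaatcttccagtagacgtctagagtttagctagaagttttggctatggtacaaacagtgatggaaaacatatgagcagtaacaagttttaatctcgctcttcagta
Omd: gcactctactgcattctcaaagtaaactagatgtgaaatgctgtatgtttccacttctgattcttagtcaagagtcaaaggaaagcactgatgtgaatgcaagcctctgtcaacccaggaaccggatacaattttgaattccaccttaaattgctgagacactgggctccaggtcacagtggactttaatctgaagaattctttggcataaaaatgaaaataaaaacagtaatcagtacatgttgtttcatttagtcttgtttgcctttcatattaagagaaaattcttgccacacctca
Ogn: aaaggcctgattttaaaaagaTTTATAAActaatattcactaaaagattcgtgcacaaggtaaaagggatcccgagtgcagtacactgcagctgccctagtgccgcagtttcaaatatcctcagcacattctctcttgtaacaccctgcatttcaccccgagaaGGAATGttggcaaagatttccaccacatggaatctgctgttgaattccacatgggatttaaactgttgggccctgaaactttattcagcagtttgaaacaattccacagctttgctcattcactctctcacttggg
Prelp: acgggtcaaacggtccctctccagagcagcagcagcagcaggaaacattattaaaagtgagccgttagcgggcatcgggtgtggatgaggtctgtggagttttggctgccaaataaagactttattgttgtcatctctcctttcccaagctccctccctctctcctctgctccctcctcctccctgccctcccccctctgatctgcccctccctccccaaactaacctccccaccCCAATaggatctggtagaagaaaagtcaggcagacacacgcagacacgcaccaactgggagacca
Fmod: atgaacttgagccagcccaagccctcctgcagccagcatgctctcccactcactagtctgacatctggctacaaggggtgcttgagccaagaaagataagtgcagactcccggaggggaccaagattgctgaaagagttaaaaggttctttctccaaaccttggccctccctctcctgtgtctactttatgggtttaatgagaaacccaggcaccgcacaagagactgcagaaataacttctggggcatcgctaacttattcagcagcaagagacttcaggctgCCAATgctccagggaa

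The 3 neighbours on chromosome 13 do not share these letters. TATAAA was in the Aspn and Ogn windows, as in 13.6% of the 32851 promoters of the table, in Ogn as a pair of overlapping matches on opposite strands. These matches began at -207 and -178 bases from the gene's start in Aspn and at -229 and -227 in Ogn. CATTCC was in Ogn alone of the 7, as in 14.7% of all, and the Omd window held none of the 6 motifs. CCAAT was in the Aspn, Fmod, Kera and Prelp windows, as in 37.4% of all, and GGGCGG was in Bgn alone, as in 35.7% of all. The Fmod match began 34 bases after the gene's start. The AP-1 and SMAD letters, in none of the 7, were in 7.81% and 0.213% of all. The Aspn window was 31.0% G or C, and only 1.28% of promoters were lower; Omd had 37.7%, Ogn 42.3%, Prelp 55.3%, Fmod 51.0% and Bgn 63.7%, against a median of 52.7%. A match describes letters in a window and is not a binding site.

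The comparison of 1 week with birth gave the main pattern. Of the 8 members that could be tested, 6 rose in KI (Lum, Dcn, Prelp, Bgn, Fmod and Ogn) and 5 rose in WT (Lum, Dcn, Prelp, Ogn and Omd), and none fell. Over all 15744 genes tested, 5.86% rose and 4.75% fell in KI, and 10.0% rose and 8.96% fell in WT (limma with Benjamini-Hochberg adjustment, threshold 0.05). The median log2 difference of the 8 members was 1.09 in KI and 0.91 in WT, beside medians of -0.02 and -0.04 over all genes. By the scanner-file labels 7 of 8 rose in KI, all but Omd, and 6 of 8 in WT, adding Bgn, beside 8.38% and 6.98% of all genes that rose and 6.88% and 5.67% that fell. Both 1-week arrays lay above both birth arrays for all 8 members in KI and in WT, as for 28.0% and 29.1% of all genes; by the scanner-file labels this held for 8 in KI and 7 in WT (all but Aspn), as for 26.6% and 31.7%. In a tissue sample, a larger number of cells of a type and more RNA per cell cannot be told apart.

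The count in KI was smaller when any 1 of its 4 arrays was left out, and also when either WT birth array was. The number of genes called over the whole array was smaller in each of these fits too. The median KI change of the 8 members was 0.87 without array B and 1.33 without array C. It was 1.13 without KI birth array 1 and 1.13 without KI birth array 2. In WT the median was 0.92 without birth array 1, 0.91 without birth array 2, 0.98 without array A and 1.02 without array D. All 8 changes stayed above 0 in each of these fits.

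Among the class I genes, decorin (Dcn) binds fibrillar collagen and transforming growth factor beta through its core protein. Dcn stood at 6.43 and 6.26 on KI arrays B and C and at 6.51 and 6.96 on WT arrays A and D at 1 week, against 5.14 and 4.79 in KI and 4.99 and 5.02 in WT at birth. Every 1-week array lay above every birth array, by at least 1.12, and array D was highest. The increase was 1.38 ± 0.19 in KI (2.61-fold, adjusted p = 0.00662) and 1.73 ± 0.19 in WT (3.32-fold, adjusted p = 0.00249; log2 ± limma standard error, n = 2 arrays a group here and below). Without array B the KI change was 1.30 and its adjusted p was 0.0528. Both calls were kept with scanner-file labels, at 1.65 in KI and 1.47 in WT.

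Biglycan (Bgn) is decorin's closest relative in the family. Bgn stood at 1.21 and 0.86 on B and C and at 1.11 and 0.60 on A and D at 1 week, against -0.01 and 0.02 in KI and 0.18 and 0.30 in WT at birth. Again no 1-week array overlapped a birth array, but the arrays at 1 week were spread over 0.61 log2 units, with array D lowest. The difference passed in KI (1.03 ± 0.20, adjusted p = 0.0221) and not in WT (0.62 ± 0.20, adjusted p = 0.0750). By the scanner-file labels it passed in both, at 0.73 ± 0.13 in KI and 0.92 ± 0.13 in WT. The WT change was 0.36 without array A and 0.87 without array D, where it passed (adjusted p = 0.0399).

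Asporin (Aspn) belongs to class I by sequence but lacks a glycosaminoglycan chain, and it binds and restrains transforming growth factor beta. Aspn stood at 1.14 and 1.59 on B and C and at 1.24 and 1.23 on A and D at 1 week, against 0.86 and 0.77 in KI and 1.08 and 1.17 in WT at birth. In KI the 2 ages did not overlap; in WT they lay close together, and KI array B lay below 1 of the WT birth arrays. The difference was 0.55 ± 0.17 in KI (adjusted p = 0.0907) and 0.11 ± 0.17 in WT (adjusted p = 0.677). Aspn passed only in KI and only by the scanner-file labels (0.60 ± 0.15, adjusted p = 0.0432).

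**Figure D1:**
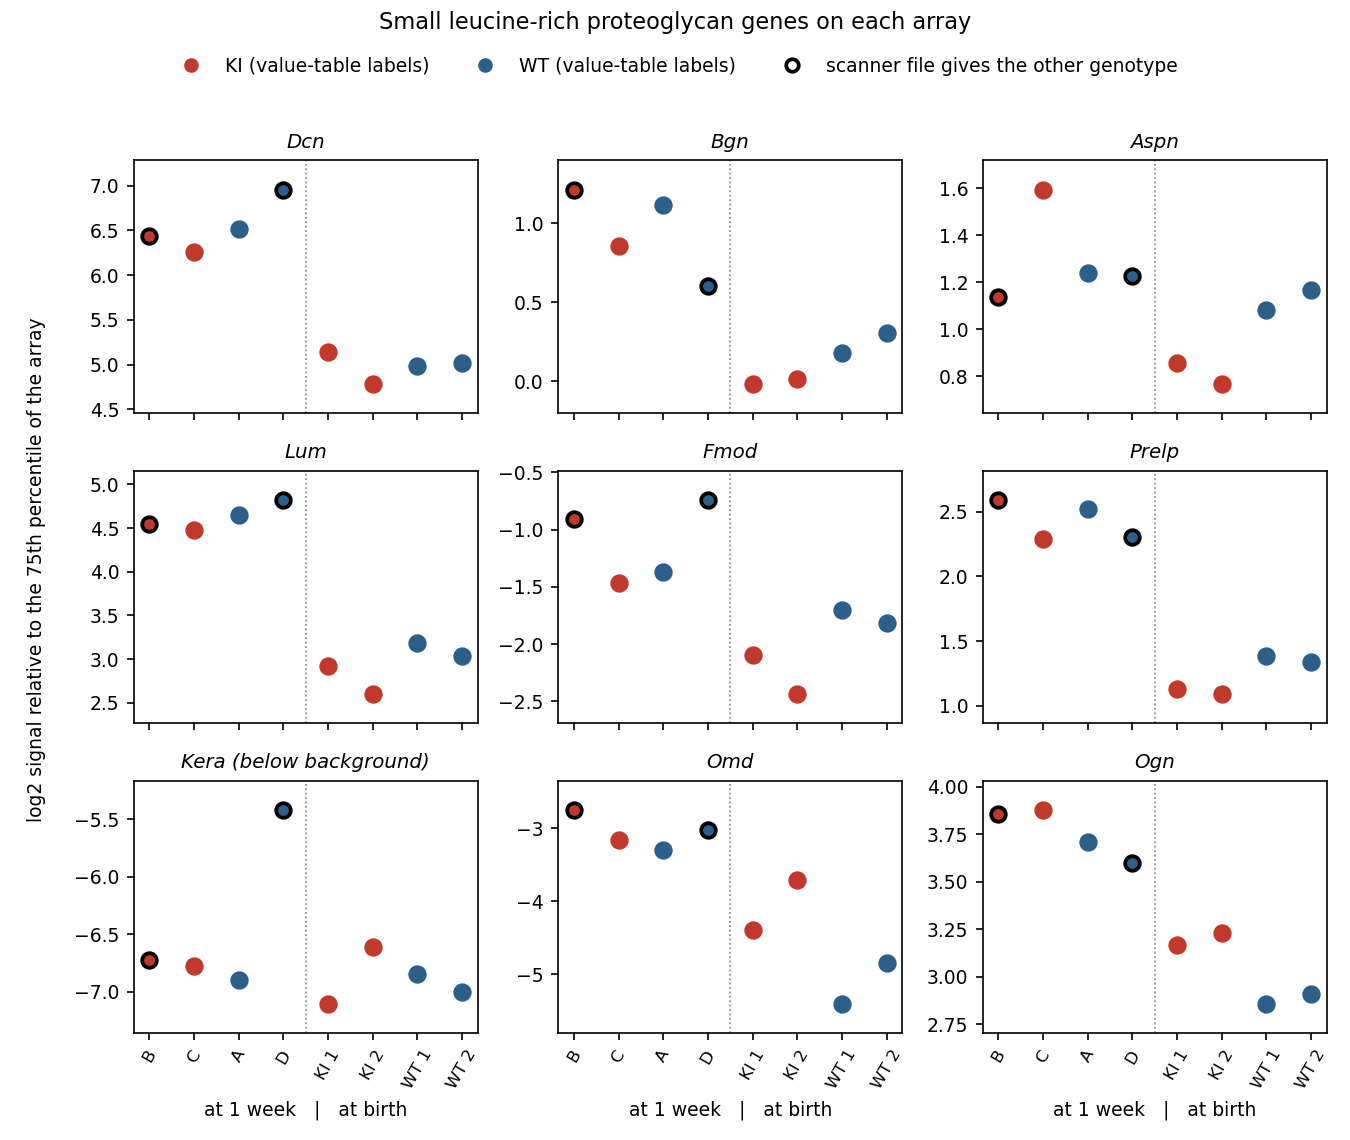
Log2 signal of the 9 genes on each array, relative to the array's 75th percentile (vertical axes, a separate scale for each gene), with 1-week arrays on the left of the dotted line and birth arrays on the right, KI in red before WT in blue. Black rings mark arrays B and D, whose genotype differs between the value table and the scanner file; Lum, Dcn, Bgn, Fmod, Prelp, Ogn and Omd lie higher on every 1-week array than on any birth array, and Kera was below background on all 8.

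In class II, lumican (Lum) carries keratan sulfate and limits the thickness of collagen fibrils. Lum stood at 4.55 and 4.48 on B and C and at 4.66 and 4.83 on A and D at 1 week, against 2.92 and 2.60 in KI and 3.18 and 3.04 in WT at birth. The 4 arrays at 1 week lay within 0.35 of each other and far above the birth arrays, whichever label is used. The rise was 1.76 ± 0.15 in KI (3.38-fold, adjusted p = 0.00157) and 1.63 ± 0.15 in WT (3.09-fold, adjusted p = 0.00152), and it passed in both genotypes under each of the 19 alternatives. With scanner-file labels it was 1.89 in KI and 1.49 in WT.

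Prelp encodes a class II member with a basic, heparin-binding end that anchors matrix to basement membrane. On the brighter of its probes it stood at 2.59 and 2.29 on B and C and at 2.52 and 2.31 on A and D at 1 week, against 1.13 and 1.09 in KI and 1.39 and 1.34 in WT at birth. The rise was 1.33 ± 0.15 in KI (2.51-fold, adjusted p = 0.00333) and 1.05 ± 0.15 in WT (2.07-fold, adjusted p = 0.00561), and both calls were kept with scanner-file labels (1.19 in each genotype). The dimmer probe moved the same way and read -2.45 and -2.78 on B and C and -2.62 and -2.52 on A and D, against -3.80 and -3.66 in KI and -3.61 and -3.34 in WT at birth.

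Fibromodulin (Fmod), a keratan sulfate proteoglycan that regulates the cross-linking of collagen, was more variable. Fmod stood at -0.90 and -1.47 on B and C and at -1.37 and -0.74 on A and D at 1 week, against -2.09 and -2.43 in KI and -1.70 and -1.82 in WT at birth. The ages did not overlap, but arrays of the same age and genotype differed by 0.56 (KI) and 0.63 (WT) at 1 week. The difference was 1.08 ± 0.27 in KI, just under the threshold (adjusted p = 0.0497), and 0.71 ± 0.27 in WT (adjusted p = 0.109). The KI call was lost under 12 of the 19 alternatives. With scanner-file labels the change was 1.16 in KI, where it passed, and 0.62 in WT, where it did not. In WT it was 0.39 without array D and 1.02 without array A, where it passed (adjusted p = 0.0411).

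Osteomodulin (Omd), first known from bone matrix, was close to the lower limit of detection, and 1 of the WT birth arrays was not well above background. Omd stood at -2.75 and -3.16 on B and C and at -3.30 and -3.03 on A and D at 1 week, against -4.39 and -3.70 in KI and -5.41 and -4.85 in WT at birth. The ages did not overlap in either genotype. The difference was 1.96 ± 0.29 in WT (adjusted p = 0.00668), where it passed, and 1.09 ± 0.29 in KI (adjusted p = 0.0625), where it did not. With scanner-file labels the calls were as before, at 2.10 in WT and 0.95 in KI (adjusted p = 0.0818). With another background correction (normexp) both were much smaller, at 0.48 in KI and 0.69 in WT.

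Keratocan (Kera), a keratan sulfate proteoglycan best known from the cornea, was not well above background on any array and was not tested. Its probe read -6.72, -6.77, -6.90 and -5.42 on arrays B, C, A and D, and between -7.10 and -6.61 at birth, which bounds the level and gives no order. Epyc, next to it on chromosome 10, was above background on 1 array.

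Osteoglycin (Ogn), the class III member, also called mimecan, has been linked to left ventricular mass in rats and people. Ogn stood at 3.86 and 3.88 on B and C and at 3.71 and 3.60 on A and D at 1 week, against 3.17 and 3.23 in KI and 2.86 and 2.91 in WT at birth. Arrays of the same group differed by 0.02 to 0.11, and the lowest 1-week array lay 0.37 above the highest birth array. The rise was 0.67 ± 0.12 in KI (1.59-fold, adjusted p = 0.0149) and 0.77 ± 0.12 in WT (1.71-fold, adjusted p = 0.00696). With scanner-file labels both passed, at 0.54 in KI and 0.90 in WT. Of the 3 neighbours on chromosome 13, Ogn and Omd thus rose in WT while Aspn did not pass.

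**Figure D2:**
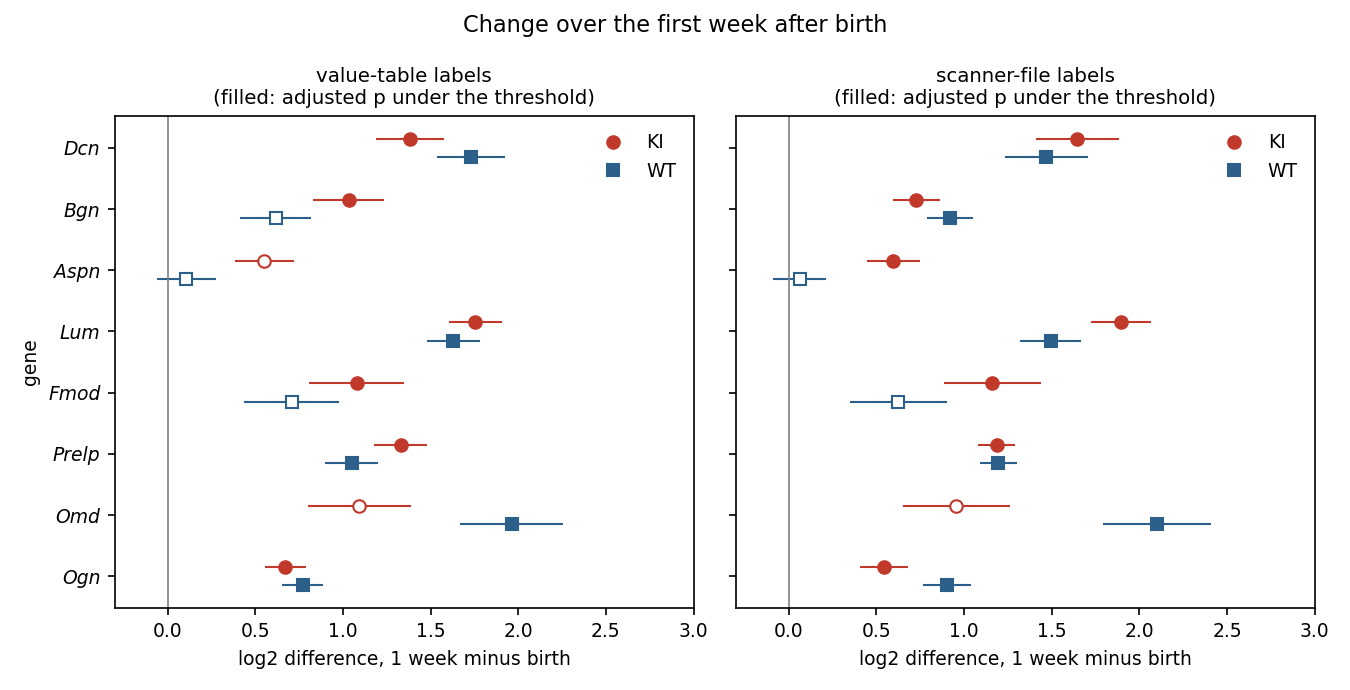
Log2 difference between 1 week and birth for the 8 tested members (horizontal axis; bars are limma standard errors), KI as red circles above WT as blue squares, with value-table labels on the left and scanner-file labels on the right; filled symbols have an adjusted p under 0.05. Lum, Dcn and Prelp lie above 1.0 in both genotypes and both panels, and Aspn in WT lies closest to 0.

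Of 10 markers of cardiac fibroblasts, 4 rose in KI and none fell, and 5 rose and 1 fell in WT. With scanner-file labels 6 rose in KI and 5 in WT, and none fell. Pi16, a marker of adventitial fibroblasts, rose by 2.85 in both KI and WT, and the elastic-fibre gene Mfap5 rose by 1.43 in KI and 1.31 in WT (log2). Dermatopontin (Dpt), a matrix protein that binds decorin, rose by 1.33 in KI and 0.92 in WT, and the collagen receptor Ddr2 by 0.91 in KI and 1.34 in WT. Col3a1 rose by 0.89 in WT and stood at 0.83 in KI (adjusted p = 0.0501). Tcf21, a transcription factor of fibroblast precursors, fell by 0.48 in WT, which was lost with scanner-file labels, and stood at -0.20 in KI. By the value table the other 4 passed in neither genotype. Gsn was -0.50 in KI and -0.53 in WT, and Scara5 -0.99 in KI and -0.07 in WT. Col1a1 was 0.49 in KI and 0.50 in WT, and Pdgfra 0.31 in KI and 0.36 in WT. With scanner-file labels Tcf21, Gsn and Scara5 were also negative in KI, so the 6 that rose there included Col1a1, Pdgfra or both. The summed level of the 10 markers ranged from 258 to 296 in KI and from 250 to 338 in WT at 1 week, against 178 to 211 in KI and 195 to 197 in WT at birth, and none of the 10 was below background on every array. Markers of valve and chondrogenic cells summed to 8.75 to 10.2 in KI and 8.28 to 12.1 in WT at 1 week, against 5.29 to 6.12 in KI and 6.45 to 6.77 in WT at birth, with 2 of 9 tested markers rising in each genotype (1 in WT with scanner-file labels). The 5 tendon markers summed to 4.75 to 5.74 in KI and 3.90 to 4.57 in WT at 1 week, against 6.83 to 7.44 in KI and 6.93 to 7.48 in WT at birth, and Kera and Mkx among them were below background on every array. Of the 2 that could be tested, Thbs4 fell by 0.77 in KI and by 1.16 in WT, the WT call being lost with scanner-file labels, and Scx passed in neither genotype. The part of these cells in the rise of the proteoglycan genes was not tested.

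Other leucine-rich genes of the family were also measured. Of 9 such genes 5 could be tested, and the same 3 passed in both genotypes and both records, all upward. Ecm2, which lies next to Aspn, rose by 1.16 in KI and 1.29 in WT, the chondroadherin-like gene Chadl by 0.65 in KI and 1.33 in WT, and podocan (Podn) by 2.92 in KI and 2.69 in WT. Podn stood at 0.71 and 0.48 on B and C and at -1.30 and 1.31 on A and D, against -2.25 and -2.41 in KI and -2.55 and -2.83 in WT at birth, so array A was far below the other 1-week arrays. Chad and Tsku did not pass, and Chad was well above background on only 4 of the 8 arrays. Podn, Tsku and, in the next 2 paragraphs, Chst11 and Col1a2 were named after their values were seen.

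The enzymes that build the chains on these proteins, and the lists that follow, are counted against the shares of all genes that rose or fell, given above. Of 19 tested genes of the chondroitin and dermatan sulfate pathway, 2 rose and 1 fell in KI, and 5 rose and 1 fell in WT. With scanner-file labels 3 of 20 rose and 1 fell in each genotype. The sulfotransferase Chst7 rose by 0.73 in KI and 0.83 in WT, and Chst15, which adds a further sulfate to the chain, rose by 1.40 in WT and stood at 0.52 in KI (adjusted p = 0.151). Chst11, which sulfates chondroitin, fell by 1.21 in KI and by 0.90 in WT. In the keratan sulfate pathway 1 of 10 tested genes rose in KI and 2 in WT, and the counts were equal with scanner-file labels. The sialyltransferase St3gal1 rose by 0.43 in WT, a call lost with scanner-file labels (0.41, adjusted p = 0.0644), and stood at 0.13 in KI. The keratan sulfotransferase Chst1 rose by 1.29 in KI and 1.53 in WT, and it stood at 2.61, 2.59, 2.62 and 2.67 on arrays B, C, A and D, against 1.45 and 1.18 in KI and 1.19 and 1.04 in WT at birth.

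Among 18 genes of fibrillar collagens and their processing, 5 rose and 1 fell in KI, and 6 rose and 1 fell in WT, whereas with scanner-file labels 8 rose and 1 fell in KI, and 6 rose and none fell in WT. Pcolce2, which enhances the trimming of procollagen, rose by 3.66 in KI and 3.22 in WT. It stood at 0.99 and 0.63 on B and C and at 0.80 and 0.71 on A and D, against -2.83 and -2.87 in KI and -2.65 and -2.27 in WT at birth. The collagen I chain Col1a2, a partner of decorin, rose by 0.74 in KI and 1.09 in WT, and Col11a1, of fine embryonic fibrils, fell by 1.20 in KI and by 1.51 in WT. The fall of Col11a1 in WT did not pass with scanner-file labels (-1.21, adjusted p = 0.0532). Of 13 tested large proteoglycans and proteases, 3 rose and 1 fell in each genotype, whereas with scanner-file labels 2 rose and none fell in KI, and 2 rose and 1 fell in WT. The protease Htra1, which can cleave decorin and other members of the family, rose by 1.18 in KI and 1.21 in WT, and aggrecan (Acan), the large cartilage proteoglycan, rose by 1.52 in KI and 1.08 in WT, the WT call being lost with scanner-file labels (0.79, adjusted p = 0.061). Of 19 tested growth factors and receptors that bind these proteins, 2 rose and 2 fell in KI, and 3 rose and 3 fell in WT. With scanner-file labels 3 of 18 rose and 2 fell in KI, and 3 rose and 1 fell in WT. Bmp4 rose by 1.02 in KI and 1.47 in WT, the receptor Kdr rose by 0.71 in KI and 1.25 in WT, and the insulin-like growth factor receptor Igf1r, a receptor for decorin, fell by 1.09 in KI and by 1.22 in WT.

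**Figure D3:**
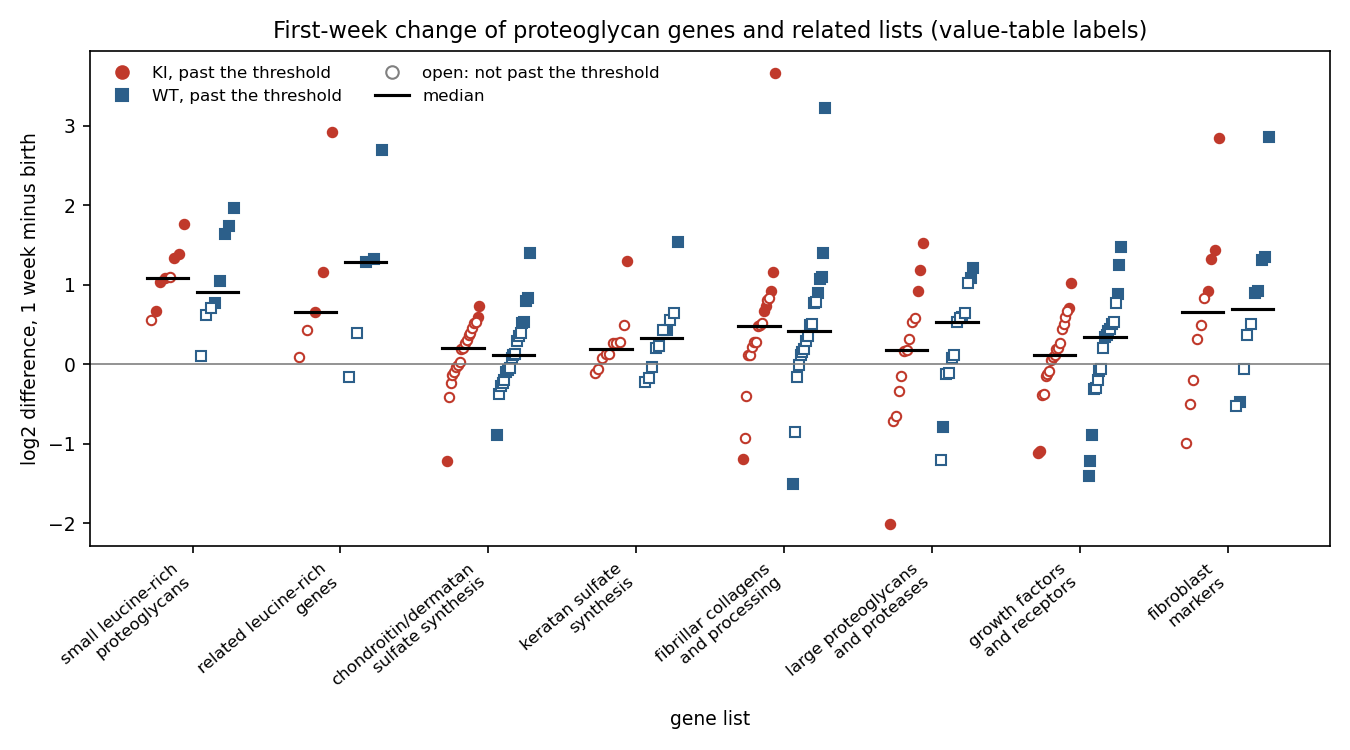
Log2 difference between 1 week and birth (vertical axis) for each tested gene of the proteoglycan family, the 6 related lists and the fibroblast markers, KI as red circles left of WT as blue squares, value-table labels; filled symbols have an adjusted p under 0.05 and black bars are medians. The family's medians are 1.09 in KI and 0.91 in WT. Those of the related leucine-rich genes are 0.65 and 1.29, the latter above the family's, and those of the fibroblast markers 0.66 and 0.69. Medians in KI and WT are 0.20 and 0.11 for the chondroitin and dermatan sulfate genes and 0.20 and 0.33 for the keratan sulfate genes. They are 0.48 and 0.42 for the collagen genes, 0.17 and 0.53 for large proteoglycans and proteases, and 0.11 and 0.34 for growth factors and receptors.

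KI against WT at birth asked whether the newborn mutant heart differed in these genes, and no member passed. Of the 8, 6 had lower means in KI and 2, Ogn and Omd, had higher means, with differences from -0.50 to 1.08 (log2) and adjusted p from 0.672 upward. Over all genes 0.0381% passed, and 741 genes had an unadjusted p under 0.05, among them Ogn and Omd. In the fit with scanner-file labels 0% of all genes passed, and Omd alone of the 8 was among the 677 genes with an unadjusted p under 0.05. Both KI arrays lay below both WT arrays for Lum, Bgn, Fmod, Prelp and Aspn, as for 15.2% of all genes, and above both for Ogn and Omd, as for 16.7%.

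The largest of these differences belonged to Omd, at -4.39 and -3.70 in KI and -5.41 and -4.85 in WT (1.08 ± 0.29, adjusted p = 0.672). With the normexp background correction it was 0.25, and 1 of the WT arrays was not well above background. Ogn was 0.31 ± 0.12 higher in KI (1.24-fold, adjusted p = 0.922), and its arrays within a genotype differed by 0.06 in KI and 0.05 in WT. Aspn, the third neighbour on chromosome 13, was lower in KI by 0.31 on the log2 scale (-0.31 ± 0.17). Among class II genes, Fmod was -0.50 ± 0.27, Lum -0.35 ± 0.15 and Prelp -0.25 ± 0.15. Bgn was -0.24 ± 0.20, and Dcn, at 5.14 and 4.79 in KI and 4.99 and 5.02 in WT, was -0.04 ± 0.19 and changed sign when KI birth array 2 was left out (0.13). The scanner software marked KI birth array 1 for evaluation; without it the differences of the 8 members kept their sign, with Omd at 1.42 and Dcn at -0.22.

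The fibroblast markers gave no call at birth either, with a median difference of -0.02 over 10 markers. Of these, 4 differences were positive, and the 10 ran from -0.66 (Pi16) to 0.19 (Ddr2). The summed level of the list was 178 to 211 in KI and 195 to 197 in WT. Valve and chondrogenic markers summed to 5.29 to 6.12 in KI and 6.45 to 6.77 in WT, with negative differences for 8 of 9. Their part in the differences of the proteoglycan genes was not tested.

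**Figure D4:**
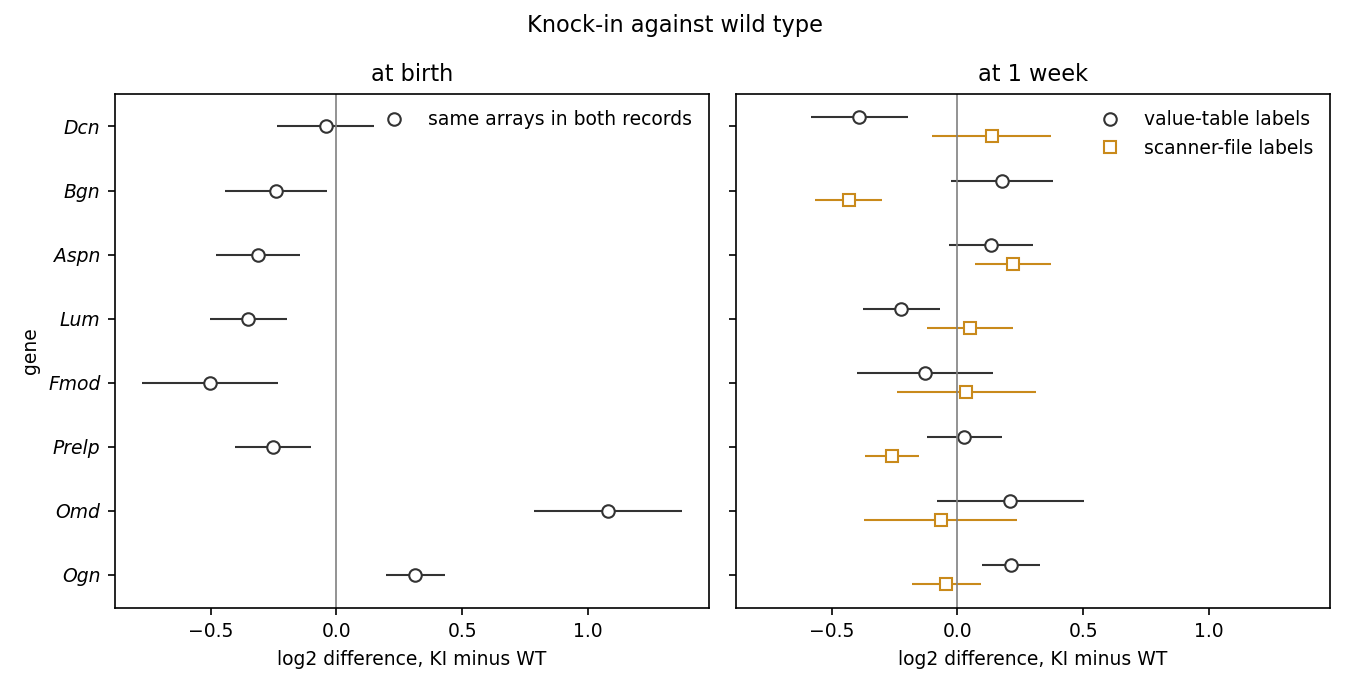
Log2 difference between KI and WT (horizontal axis; bars are limma standard errors) for the 8 tested members at birth and at 1 week; open symbols have an adjusted p of 0.05 or more, which holds for all. At birth Omd lies at 1.08 and the rest between -0.50 and 0.31; at 1 week the grey circles (value-table labels) and ochre squares (scanner-file labels) lie on opposite sides of 0 for 7 of the 8 genes.

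At 1 week no member differed between KI and WT by either record. By the value table the differences ran from -0.39 to 0.21 with adjusted p from 0.689 to 0.965, beside 0.0508% of all genes passing, and none of the 8 was among the 1111 genes with an unadjusted p under 0.05. By the scanner-file labels they ran from -0.43 to 0.22 with adjusted p from 0.442 to 0.982, beside 0.00635% of all genes, and Bgn and Prelp were among the 1556 genes with an unadjusted p under 0.05. The sign of 7 members, all but Aspn, depended on which record was used.

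Dcn was the member furthest from 0 by the value table, at 6.43 and 6.26 in KI and 6.51 and 6.96 in WT (-0.39 ± 0.19, adjusted p = 0.689), and it was 0.14 ± 0.24 by the scanner-file labels. Lum was -0.22 ± 0.15 by the value table and 0.05 ± 0.17 by the scanner-file labels. Both KI arrays lay below both WT arrays for these 2 genes by the value table, as for 18.0% of all genes, and above both for Ogn (0.21 ± 0.12), as for 19.8%. By the scanner-file labels the 2 that did not overlap were instead Bgn (-0.43 ± 0.13, adjusted p = 0.442) and Prelp (-0.26 ± 0.11, adjusted p = 0.495), both lower in KI, as for 19.9% of all genes. Bgn was 0.18 ± 0.20 and Prelp 0.03 ± 0.15 by the value table. Aspn was 0.13 ± 0.17 by the value table and 0.22 ± 0.15 by the scanner-file labels, with array C highest in both. Fmod was -0.13 ± 0.27 and 0.03 ± 0.28, and Omd 0.21 ± 0.29 and -0.07 ± 0.31, by the value table and the scanner-file labels in that order.

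Array A was WT in both records, and its summed level of atrial markers was low. Without it no member passed at 1 week by the value table, with Dcn at -0.61 and Bgn at 0.43, and without array D none passed either, with Dcn at -0.17 and Bgn at -0.08. Fibroblast markers at 1 week had a median difference of -0.11 by the value table and 0.14 by the scanner-file labels, with no call. Lum, Dcn and Fmod also turned from negative to positive, while Bgn, Prelp, Ogn and Omd turned from positive to negative. Aspn kept its sign. None of the 6 related lists held a gene that passed at birth or at 1 week in either record. Of the genes named by the rule, Col11a1 had the smallest adjusted p at 1 week (0.77, adjusted p = 0.240), standing at -1.10 and -0.88 in KI and -1.80 and -1.71 in WT, and it was 0.16 with scanner-file labels (adjusted p = 0.911). The others by the value table were P4ha1, which hydroxylates collagen (0.53), Chadl (-0.43), Kdr (-0.37), Mmp2 (-0.32) and Mmp14 (-0.30), both matrix proteases, Chst15 (-0.31), Csgalnact1 (-0.29), B3gnt2 (0.27) and St3gal3 (0.19), with adjusted p from 0.682 upward. With scanner-file labels the sign turned for Chadl (0.02), Kdr (0.15), Chst15 (0.05), Csgalnact1 (0.16) and St3gal3 (-0.14), and the rest stood at 0.05 (P4ha1), -0.26 (Mmp2), -0.09 (Mmp14) and 0.18 (B3gnt2). For Chad and for Itga2, an integrin chain for collagen, no difference is given, since at 1 week Chad was well above background on arrays B and C only and Itga2 on arrays A and D only.

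Whether the first-week change differed between the genotypes was tested as an interaction, and no member passed. Adjusted p ran from 0.888 to 0.923 by the value table, beside 0.00635% of all genes passing, and none of the 8 was among the 763 genes with an unadjusted p under 0.05. The members furthest from 0 were Omd (-0.87 ± 0.42), Aspn (0.44 ± 0.24) and Bgn (0.42 ± 0.29). By the scanner-file labels Omd was -1.15 ± 0.43 and Aspn 0.53 ± 0.21, both with adjusted p = 0.781, and Bgn was -0.19 ± 0.19. With those labels 0% of all genes passed, and Omd and Aspn were among the 991 genes with an unadjusted p under 0.05. The calls of Bgn and Fmod in KI alone and of Omd in WT alone are therefore not shown to differ between the genotypes.

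Ordered by group mean, Lum and Dcn were highest in WT at 1 week, then in KI at 1 week, WT at birth and KI at birth. For Dcn the arrays of the 2 genotypes overlapped at birth, while for Lum no neighbouring groups overlapped. Bgn, Prelp and Aspn were highest in KI at 1 week, then in WT at 1 week, WT at birth and KI at birth, and the 2 genotypes overlapped at 1 week for all 3. Fmod followed the order of Lum, with overlap at 1 week. Ogn and Omd were highest in KI at 1 week, then in WT at 1 week, KI at birth and WT at birth; for Ogn no neighbouring groups overlapped, and for Omd the genotypes overlapped at 1 week. With array labels from the scanner files the order of the 1-week groups changed for all but Aspn. The 2 genotypes then overlapped at 1 week for Lum and Ogn as well. By the value table, KI and WT did not overlap for 31.9% of all genes at birth and 37.9% at 1 week. The 2 ages did not overlap for 60.1% of all genes in KI and 62.7% in WT. The share of all genes with every group apart was not counted, and no member passed between KI and WT.

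The genes whose levels followed each member most closely over the 8 arrays, by Pearson correlation, were found among the tested genes outside the family. They were Sybu (0.997) and Mrgprf (0.997) for Lum, Mapk8ip1 (0.995) and Septin8 (0.995) for Dcn, and Eda2r (0.995) and Ntsr2 (0.994) for Prelp. Omd was followed by Sox10 (0.992) and Nrn1l (0.983), and Ogn by Slc25a23 (0.994) and Mrc1 (0.987). Bgn was followed by Tnfrsf21 (0.984) and Rab21 (0.984), and Fmod by Tdpoz7 (0.971) and Cped1 (0.969). For Aspn, F11r (0.947) was among the closest. The arrays share a slide and fall into the 2 ages, and each pair was picked from what remained of 15744 genes. These values therefore describe the arrays and carry no test.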

How the data were processed

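Heart ventricle RNA of 8 mouse samples (4 groups of 2) was hybridised to single-colour (Cy3) Agilent arrays on 1 slide; per the labels' protocols, RNA was isolated with TRIzol and labelling started from 100 ng. The deposited scanner files held a processed signal for each spot, an intensity on a linear scale background-corrected by the authors' scanner software and not normalized between arrays. Flags (other), coded 0 and 1 per the file headers, marked spots that were well above background, saturated or outliers. The file headers gave Feature Extraction 11.0.1.1 and build mm9, whereas version 9.1 stood in the submitters' processing notes. A deposited value table gave that intensity per probe. Each of its columns equalled 1 scanner file over 56305 probes at a relative tolerance of 0.0001, but at 1 week 3 columns equalled the file of another sample. Array A was WT replicate 1 in both; array B was KI replicate 1 by the table and WT replicate 2 by its file, array C was KI replicate 2 and KI replicate 1, and array D was WT replicate 2 and KI replicate 2, in that order. No array was assigned by its expression.

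Spots of a probe were averaged without controls and outliers (56605 probes, 15 dropped), log2 transformed and set against the array's 75th percentile. RefSeq accessions named 32988 probes (GRCm38.p6 gene table, used for names and neighbours only). No probe was saturated. The brightest probe stood for a gene, and a gene was tested where some group had it well above background on each of its arrays (15744 by the value table, 15757 by the scanner files). limma 3.58.1 (lmFit and eBayes, R 4.3.3) was fitted to all 8 arrays with a mean for each group and 4 residual degrees of freedom, and tested on simulated data. Adjustment was Benjamini-Hochberg over all genes in each of 5 comparisons. An exact permutation test of 2 arrays against 2 cannot go below p = 0.333. The normexp alternative (offset 50, all spots) used median spot and background intensity in place of the planned mean spot signal. The members and all lists were chosen with earlier results of these data known. Of each related list, the text names up to 2 genes with the smallest p in 1 week against birth in WT and up to 2 in KI against WT at 1 week; others are said to be named after their values were seen. A gene of the correlation comparison is not reported here.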

Additional observations from a re-analysis of the deposited data

How the results depend on the processing

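Each value was recomputed under up to 19 alternatives. No member passed in KI against WT at birth, at 1 week or in the interaction under any of them (limma, adjusted p under 0.05). In WT the count of members that rose was 4 to 6, and Lum, Dcn, Prelp and Ogn passed under each alternative, as did Omd in the 18 that tested it. In KI the count was smaller when any 1 of the KI arrays or WT birth arrays was left out, as was the number of genes called over the array. The KI count was 4 without a filter on dim probes and 7 with scanner-file labels or median centring. It was 5 with the mean of a gene's probes or with only the arrays compared. There Fmod was lost under 12, Bgn under 5, Ogn under 4 and Dcn under 1, Omd was gained under 4 and Aspn under 1. In WT, Bgn was gained under 6 and Fmod under 1. Signs of small differences turned. By the scanner-file labels, also with crossed replicate numbers, KI minus WT at 1 week became 0.049 for Lum, 0.14 for Dcn, -0.43 for Bgn, 0.035 for Fmod, -0.26 for Prelp, -0.045 for Ogn and -0.067 for Omd, and the interaction 0.18 for Dcn, -0.19 for Bgn and -0.0092 for Prelp. Prelp at 1 week was -0.021 with quantile normalization and -0.0098 with the mean of its probes. Median centring turned the interaction of Ogn (0.044) and the WT change of Aspn (-0.051), and normexp the WT change of Aspn too (-0.011). Leaving out arrays gave ranges of -0.22 to 0.13 for Dcn at birth, -0.077 to 0.43 for Bgn, -0.45 to 0.19 for Fmod, -0.13 to 0.18 for Prelp and -0.095 to 0.36 for Aspn at 1 week, and -0.031 to 0.28 for Lum in the interaction. Genes called over the whole array ranged from 0 to 7 at birth, 0 to 22 at 1 week, 0 to 4 in the interaction, 560 to 2733 in KI and 1193 to 4180 in WT. Median centring moved the WT calls to 1005 higher and 1755 lower, against 1577 and 1411, and the median of all genes in WT to -0.20 from -0.04; relative to that shift, Lum, Dcn, Prelp, Ogn and Omd still passed upward. The replicate numbers were not taken to pair the samples: with 2 pairs an age, deviations correlated at 0.29 and 0.16 (value table) and, at 1 week by the scanner files, at -0.16. With the replicate block 6 members passed in WT and 6 in KI, with 3385 and 1861 genes called over the array, and with the crossed numbers by the scanner files 6 and 6 members, with 2271 and 2733 genes. The causes of these changes were not tested.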
